A study of Mus musculus with 8 samples.

Results

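Thy1, Twist1, Mgp, Fbln2 and Acta2 are genes known for their activity in fibroblasts and other mesenchymal cells, and their RNA was followed here in 3 mouse neural stem cell (NSC) groups and in embryonic fibroblasts (MEF). The members were all named probes of the array whose platform symbol is one of these 5 names, which gave 5 of 8576 named genes and 9 of 11692 named probes: 1 each for Thy1 (ILMN_2644350), Twist1 (ILMN_1236188) and Mgp (ILMN_2666018), 2 for Fbln2 (ILMN_1245307 and ILMN_3132949) and 4 for Acta2 (ILMN_2693895, ILMN_2710353, ILMN_2710354 and ILMN_2923445). The array table held 25697 probes, and unnamed probes of these genes may have been missed. The genes were chosen by their measured differences among the NSC groups on these same arrays, so the values of that contrast among fNSC, pNSC and miPS-NSC are a description with no test. They were read as a set that is partly on in miPS-NSC, and the Acta2 probes go against that reading, as described below.

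RNA was hybridised to 8 Illumina BeadChips, 2 per group, on which each probe sits on many beads and the brightness of the beads measures the matching RNA. The fNSC group was labelled as female NSCs of genotype OG2ROSA with P27 in the sample name, pNSC as parthenogenetic NSCs of genotype OG2+/- with P18, miPS-NSC as genotype OG2+/- with P8, and MEF as embryonic fibroblasts of genotype OG2+/-. All 8 samples were labelled female, and the labels give a growth-factor medium for expanding NSCs for every group, MEF included. The labels explain neither miPS-NSC nor its sample name pips-NSC, nor the P numbers, nor the ending "_re" on the title of the second array of each group, and the column names of the signal table read OG2ROSA1 for MEF. The P number thus cannot be told apart from the NSC group, nor the genotype between fNSC and the other 2 NSC groups. It is not stated that paired arrays hold RNA of separate cultures, so the errors and p-values cover array-to-array spread, which may be purely technical. In RNA of whole cultures, fewer cells expressing a gene and less RNA per cell cannot be told apart.

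Mesenchymal cells such as fibroblasts build and pull on the extracellular matrix, whereas NSCs are progenitors of neurons and glia. Thy1 is a lipid-anchored surface glycoprotein of fibroblasts that is also made by mature neurons and mouse T cells. Twist1 is a basic helix-loop-helix transcription factor of the cranial and limb mesenchyme that binds short DNA words called E boxes. Mgp, the matrix Gla protein, is a secreted vitamin K-dependent inhibitor of calcification that binds bone morphogenetic proteins (BMPs). Fbln2 is a secreted fibulin of basement membranes and elastic fibres, and Acta2 is the actin of smooth muscle cells and myofibroblasts.

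In the RefSeq annotation of GRCm38.p6, Thy1 lies at chr9:44043384-44048579, Twist1 at chr12:33957671-33959831, Mgp at chr6:136872435-136875823, Fbln2 at chr6:91212460-91272540 and Acta2 at chr19:34240336-34255585. The 2 Fbln2 probes carry different RefSeq transcripts in the platform annotation, and the 4 Acta2 probes carry the same one. RefSeq sequence before the start was at hand for Twist1, Fbln2 and Acta2, 3 of the 5 members. It was searched on both strands, over the 250 bases before the start, for the E box CANNTG. The stretches below are shown because Twist1 is itself an E box-binding factor, with E boxes in capitals and each stretch read 5′ to 3′ on the strand of its gene. The first is the whole stretch before Twist1 (chr12:33957421-33957670, plus strand), which held no E box. The next is the only E box before Fbln2 (chr6:91212591-91212620, plus strand), and the last 2 hold the 3 E boxes before Acta2 (chr19:34255580-34255609 and chr19:34255538-34255567, minus strand).
Twist1: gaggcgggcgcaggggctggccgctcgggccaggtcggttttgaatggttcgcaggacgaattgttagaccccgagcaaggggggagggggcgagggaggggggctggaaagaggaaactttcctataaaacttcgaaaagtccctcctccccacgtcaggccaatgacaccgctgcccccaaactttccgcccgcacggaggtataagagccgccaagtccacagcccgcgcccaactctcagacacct
Fbln2: gcagtactgagaCATCTGagtctcaatata
Acta2, far pair: tgtctgggCATTTGagCAGTTGttctgagg
Acta2, near: tatccccataagCAGCTGagctgcctcctg
E boxes were present in 66.2% of 32841 such windows. The Fbln2 window lies within the annotated span of its gene, as do 212 of the 250 bases of the Acta2 window, since the annotated spans reach upstream of the starts used. A match is only a match of letters, and binding was not measured.

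The arrays were alike in depth: 10553 to 10902 probes (41.1% to 42.4%) were detected per array, at a detection p under 0.01, and paired arrays differed with an SD of 0.173 to 0.281 on the log2 scale. Levels below are background-corrected, normalized log2 signals, on which the dimmest detected probe of an array stood at 6.135 to 6.29. The brightness of a probe depends on its sequence, so levels are compared only within a probe. Each of the 9 member probes was detected on both arrays of at least 1 group, in every case MEF. Markers of the labelled cell types were checked, from lists of 17 NSC markers and 30 fibroblast and matrix genes. On both arrays of each NSC group, 10 of 10 measured NSC markers were detected, and 4 of 10 in MEF. In MEF, 17 of 17 measured fibroblast and matrix genes were detected, as were 12, 12 and 13 of them in fNSC, pNSC and miPS-NSC. A measured gene is one that was named and detected on both arrays of some group, so these counts were partly fixed beforehand. Col1a2, Col5a2 and S100a4 entered through MEF alone.

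Both Fbln2 probes placed miPS-NSC between the other NSCs and MEF. On ILMN_1245307, fNSC stood at 7.50 and 7.30, pNSC at 5.68 and 5.49 without detection, miPS-NSC at 12.55 and 12.74, with MEF at 15.30 and 15.44. The 4 groups did not overlap, and only pNSC lay below the detection limit. The miPS-NSC mean was 38-fold that of fNSC and at least 86.5-fold that of pNSC. It amounted to 15.2% of the MEF level, against 0.399% in fNSC. The MEF signals of this probe were 58500 and 56470, where the brightest probe of any array gave 70110, so these percents may be overstated, as may those of Thy1 and Acta2 below. On ILMN_3132949 the values were 5.29 and 5.46 in fNSC, 5.18 and 5.12 in pNSC, 8.53 and 8.82 in miPS-NSC, with MEF at 12.36 and 12.48. That probe was below detection on every fNSC and pNSC array and was detected on both miPS-NSC arrays, at 7.43% of the MEF level and at least 5.51-fold above fNSC. Detection in fNSC thus rested on the first Fbln2 probe alone.

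Thy1 was undetected in fNSC and pNSC and detected in miPS-NSC, far below fibroblasts. Its levels were 5.11 and 4.79 on the fNSC arrays, 4.82 and 4.75 for pNSC, 9.83 and 9.65 for miPS-NSC, and 15.08 and 15.06 for MEF. The fNSC and pNSC arrays overlapped, whereas the miPS-NSC and MEF arrays each stood apart. The mean in miPS-NSC was at least 11.6-fold that of fNSC and at least 11.5-fold that of pNSC, and 2.48% of the MEF level. In deposited signal units, the miPS-NSC arrays gave 1052 and 820.1 and the MEF arrays 52240 and 49110, beside 162 to 186 on the 4 other arrays.

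Mgp came closest to the fibroblast level. It was measured at 5.06 and 5.59 in fNSC and 5.79 and 5.62 in pNSC, none of them detected, at 9.12 and 8.97 in miPS-NSC, with MEF at 9.75 and 9.55. The undetected groups cannot be ordered, and the miPS-NSC arrays lay just below the MEF arrays without overlap. The miPS-NSC mean of 9.05 ± 0.11 (SD, n = 2) was 65.8% of the MEF level and at least 7.14-fold that of fNSC and 7.11-fold that of pNSC.

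Twist1 was not particular to miPS-NSC: it was on in fNSC as well and undetected in pNSC. The fNSC arrays read 8.87 and 8.93, the pNSC arrays 5.28 and 4.85, the miPS-NSC arrays 9.46 and 9.17, and the MEF arrays 10.28 and 10.33. The 4 groups did not overlap, but fNSC and miPS-NSC were neighbours, with means of 8.90 ± 0.04 and 9.32 ± 0.20 (SD, n = 2), 1.34-fold apart. As a share of the MEF level this is 37.7% in fNSC and 50.5% in miPS-NSC. The pNSC mean was at least 6.42-fold below that of fNSC and at least 8.59-fold below that of miPS-NSC.

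**Figure D1:**
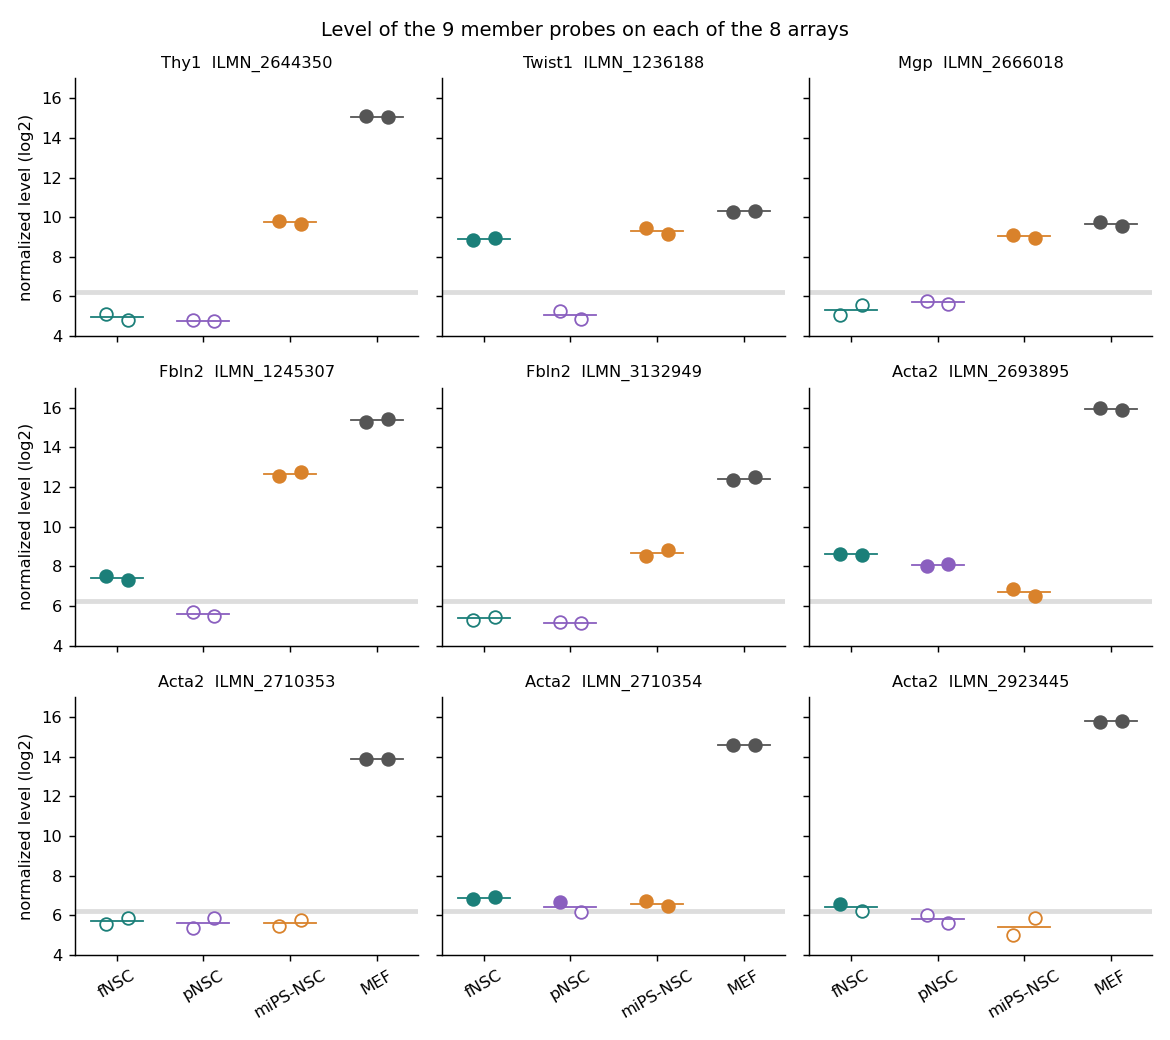
Normalized log2 level (vertical axis) of each of the 9 probes in the 4 groups, 1 point per array with a line at the mean of 2 arrays; filled points are detected, open points are not, and the grey band spans the dimmest detected probe of each array. Thy1, Mgp and both Fbln2 probes are open or low in fNSC and pNSC and filled in miPS-NSC, Twist1 is open only in pNSC, and the 4 Acta2 probes are high only in MEF.

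Acta2 was bright in MEF alone, and no Acta2 probe placed miPS-NSC between the other NSCs and MEF. On ILMN_2693895, the only one of the 4 probes detected on all 8 arrays, the levels were 8.63 and 8.59 in fNSC, 8.01 and 8.10 in pNSC, 6.86 and 6.52 in miPS-NSC, with MEF at 15.99 and 15.91. The groups did not overlap and miPS-NSC was the lowest, 3.79-fold below fNSC and 2.58-fold below pNSC. It held 0.163% of the MEF level there, against 0.619% in fNSC and 0.421% in pNSC.

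The other 3 Acta2 probes were at or near the detection limit in every NSC group. ILMN_2710354 read 6.84 and 6.91 in fNSC, 6.67 and 6.15 in pNSC, 6.73 and 6.46 in miPS-NSC, with MEF at 14.58 and 14.61. There the pNSC and miPS-NSC arrays overlapped, and 1 of the 2 pNSC arrays was not detected. ILMN_2923445 read 6.60 and 6.23 in fNSC, 6.04 and 5.64 in pNSC, 4.99 and 5.86 in miPS-NSC, with MEF at 15.77 and 15.83, and 1 fNSC array was its only detected NSC array. ILMN_2710353 was undetected on all 6 NSC arrays, at 5.34 to 5.88, and read 13.90 on both MEF arrays. The MEF signals of the 4 probes ran from 21600 to 68630, and a signal near the top of the scale limits how large a fold can be read.

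Acta2 lies on chromosome 19, and the median gene of that chromosome was lower in pNSC and miPS-NSC than in fNSC. Over its 290 measured genes, the median log2 difference was -0.47 for pNSC minus fNSC and -0.50 for miPS-NSC minus fNSC, beside 0.00 and -0.03 over the other chromosomes. Between miPS-NSC and pNSC the median was -0.05. The Acta2 difference on ILMN_2693895 was -0.56 for pNSC minus fNSC, -1.92 for miPS-NSC minus fNSC and -1.37 for miPS-NSC minus pNSC. The part of the chromosome-wide shift in the Acta2 values was not tested. The medians of chromosomes 6, 9 and 12, which hold the other members, lay between -0.12 and 0.04 in these comparisons.

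**Figure D2:**
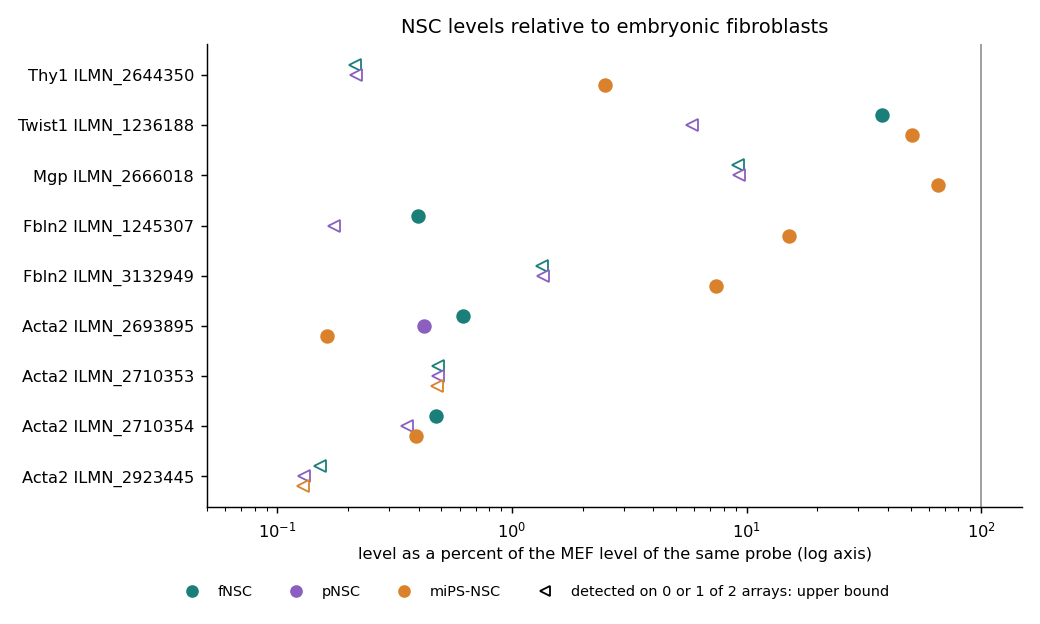
Level of each probe in fNSC, pNSC and miPS-NSC as a percent of its level in MEF (log axis; difference of the log2 means of 2 arrays); circles are groups detected on both arrays, and open triangles are upper bounds for groups detected on fewer. The miPS-NSC circles run from 65.8% for Mgp to 0.163% for Acta2.

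The level in MEF was then set against each NSC group in a limma fit over 12478 probes. A probe or gene was called higher or lower at a Benjamini-Hochberg adjusted p below 0.05 with a difference of 2-fold or more, and counts of higher and lower genes below are counts of such calls. The genes had been picked as fibroblast genes with results of these data known, so their direction here is no independent evidence. The NSC arrays took part in that choice, so the adjusted p-values and 2-fold calls of the members are no independent evidence either. Of the 9 probes, ILMN_2710353 and ILMN_2923445 of Acta2 passed the detection filter through MEF alone and so had to be higher there. With these 2 included, the 9 probes were higher in MEF than in fNSC and in pNSC (limma, adjusted p at most 0.000131 and 1.08e-06), where 21.4% and 22% of all tested probes were called higher. Against miPS-NSC, 7 of the 9 probes were called higher, where 21.6% of all tested probes were. The Fbln2 differences from miPS-NSC were 6.6-fold (log2 2.72, SE 0.125) and 13.5-fold (log2 3.75, SE 0.126), and that of Thy1 was 40.2-fold (log2 5.33, SE 0.127), with adjusted p between 5.3e-08 and 1.13e-06. The Acta2 differences read 209 to 778-fold, 2 of them lower bounds against an undetected group. The fold of ILMN_2693895 may be understated too, since its MEF signals of 68630 and 66240 lie near the top of the scale. Those of ILMN_2710354 were 36230 and 33990.

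Twist1 and Mgp missed the 2-fold limit between MEF and miPS-NSC. Twist1 was 1.98-fold higher in MEF (log2 0.99, SE 0.161, limma adjusted p = 0.000919), and it passed the limit without the first miPS-NSC array (log2 1.13) or without the first MEF array (log2 1.01). Mgp was 1.52-fold higher (log2 0.61, SE 0.182, adjusted p = 0.0174), and its adjusted p ran up to 0.0994 over the alternatives tried, the highest being without the first MEF array. Against fNSC, Twist1 was 2.65-fold higher in MEF (log2 1.41, SE 0.161, adjusted p = 0.000131).

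The size of the differences from undetected groups depended on the background step. With quantile normalization and no background correction, miPS-NSC minus fNSC fell from 4.79 to 2.54 on the log2 scale for Thy1, from 3.72 to 1.82 for Mgp, and from 3.30 to 1.52 for the second Fbln2 probe. On the same scale the Acta2 difference on ILMN_2693895 went from -1.92 to -1.05. In the authors' deposited values the levels of miPS-NSC relative to MEF were 2.85% for Thy1, 54.3% for Twist1, 68.6% for Mgp, 15.2% and 9.72% for Fbln2, and 0.406% for Acta2 on ILMN_2693895. The order of these probes was the same as with the background-corrected values.

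The rest of the mesenchymal programme was described through lists of related genes, each gene by its brightest kept probe, with the members left out. The 4 lists of matrix, elastic fibre, contractile and transcription factor genes held 30, 20, 28 and 23 genes. Of these, 17, 9, 15 and 10 were measured. Only probes with detection p below 0.05 on 4 or more arrays had gene names. A gene seen on the 2 MEF arrays alone was thus left out. Unmeasured genes included Col1a1, Col3a1, Lum and Tagln. Over the 4 lists together, 51 genes were measured, and miPS-NSC was higher than fNSC in 8 (15.7%) and lower in 6 (11.8%). Against pNSC, 8 were higher (15.7%) and 11 lower (21.6%), with median log2 differences of 0.12 from fNSC and -0.37 from pNSC. For all 8107 measured genes, the share called higher in miPS-NSC than in fNSC was 8.5% and the share called lower 5.61%, against 7.62% and 6.98% for pNSC, with medians of -0.04 and -0.03. Between the other NSC groups, pNSC was higher than fNSC in 9 of the 51 genes (17.6%) and lower in 4 (7.84%). The median there was 0.16, beside -0.01 over all genes. Of all 12478 tested probes, 725 were higher and 582 lower in that comparison. In MEF, 37 of the 51 genes were higher and 5 lower than in miPS-NSC, beside 17.2% higher and 24.8% lower over all genes. MEF was likewise higher than fNSC in 38 genes, beside 17.2% of all genes, and higher than pNSC in 37, beside 17.6%. Col1a2, Col5a2, S100a4, Loxl1, Loxl2, Cnn2, Snai1 and Des passed the detection filter through MEF alone and so had to be higher there. The lists were also chosen with results of these data known. These MEF counts, and the list counts among NSC groups here and below, are thus no independent evidence.

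Among 17 measured fibroblast and interstitial matrix genes, 5 were higher and 3 lower in miPS-NSC than in fNSC, and 2 higher and 4 lower than in pNSC. The first count was 3 without the first fNSC array and 3 without the first miPS-NSC array. With no background correction, 1 was higher and 1 lower than in fNSC, and 2 were lower than in pNSC. Col6a1, a chain of collagen VI, was 10.2-fold higher than in fNSC (log2 3.35, SE 0.089), at 8.19 in fNSC, 11.44 in pNSC, 11.53 in miPS-NSC, with MEF at 13.47. Serpinh1, the collagen chaperone, followed the Twist1 order with 9.63 in fNSC, 5.54 undetected in pNSC, 10.69 in miPS-NSC, with MEF at 11.46, and was at least 22.2-fold higher in miPS-NSC than in pNSC. Timp1, an inhibitor of matrix metalloproteinases, and Ccn1, a matricellular protein, were lower in miPS-NSC than in both other NSC groups, Timp1 by at least 4.35-fold and 3.11-fold and Ccn1 by 3.03-fold and 4.6-fold from fNSC and pNSC. Col1a2, a chain of collagen I, was undetected in all 3 NSC groups and stood at 11.40 in MEF.

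Of 9 measured genes of the fibulins and elastic fibres, 3 were higher and 0 lower in miPS-NSC than in fNSC, and 4 higher and 1 lower than in pNSC. The counts of higher genes were 1 and 2 with no background correction. Fbln1, a relative of Fbln2, read 10.66 in fNSC, 8.79 in pNSC, 11.63 in miPS-NSC, with MEF at 12.41, and was 7.13-fold higher in miPS-NSC than in pNSC (log2 2.83, SE 0.113). The microfibril protein Mfap2 was undetected in fNSC at 4.72 and stood at 9.72 in pNSC, 7.89 in miPS-NSC, with MEF at 11.44. Loxl1, an enzyme that crosslinks elastin, was undetected in all 3 NSC groups and at least 237-fold higher in MEF than in miPS-NSC.

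The 15 measured contractile genes included 0 higher and 2 lower in miPS-NSC than in fNSC. Both that were lower act in actin filaments: Tpm1, a tropomyosin, by 2.81-fold (log2 -1.49, SE 0.087) and Myh9, a non-muscle myosin, by 2.48-fold (log2 -1.31, SE 0.145). From pNSC, 2 were higher and 2 lower. Tpm1 was again lower, and Actn1, an actinin, was 2.56-fold higher. The count of higher genes was 1 without the second pNSC array, 1 without either miPS-NSC array and 1 with no background correction.

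Mesenchymal transcription factors gave 0 higher and 1 lower of 10 between miPS-NSC and fNSC, and 0 higher and 4 lower between miPS-NSC and pNSC. The count of 4 was 1 with no background correction. Without the second fNSC array, 1 was higher and 2 lower in the first of these comparisons, and without the second pNSC array or the first miPS-NSC array 1 was higher in the other. Twist2, the close relative of Twist1, had another pattern: it was undetected in fNSC at 4.83 and in miPS-NSC at 4.85, stood at 7.10 in pNSC and reached 12.79 in MEF. The homeobox factor Msx1 was on in fNSC at 8.37 and in pNSC at 8.44, and undetected in miPS-NSC at 5.70 and in MEF at 5.89.

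**Figure D3:**
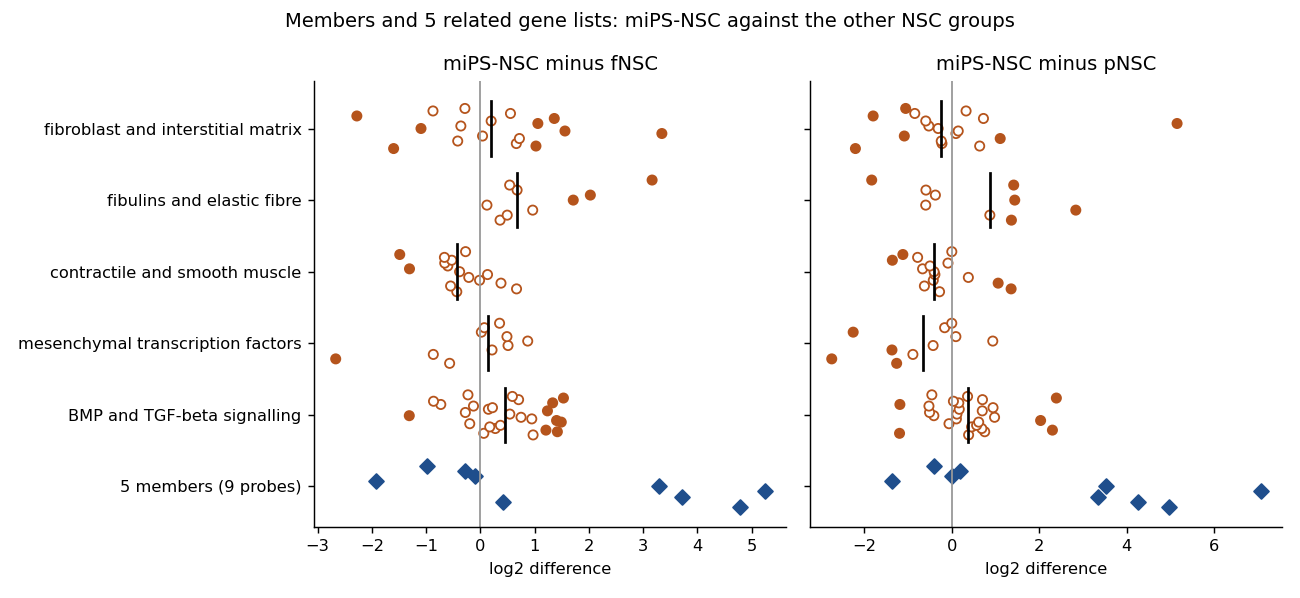
Log2 difference of miPS-NSC from fNSC (left) and from pNSC (right) for the genes of 5 related lists, 1 circle per gene, filled where called at an adjusted p under 0.05 and at least 2-fold; black bars are list medians, and blue diamonds are the 9 member probes, which were not tested. The circles lie on both sides of 0 in each list on the right, and the diamonds include values from -1.92 to 5.25 on the left.

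Genes that act with single members were listed as well, and their counts stand beside the shares called over all genes. Those were 8.5% higher and 5.61% lower from fNSC, and 7.62% and 6.98% from pNSC. In BMP and TGF-beta signalling, which Mgp touches through its binding of BMPs, 7 of 26 genes were higher and 1 lower in miPS-NSC than in fNSC, and 3 higher and 2 lower than in pNSC. Over the settings tried, the 7 ran from 2, with no background correction, to 13, with no limit on the fold. The counts from pNSC were 5 higher without the first pNSC array and 1 lower without the second. Id1, a BMP target that inhibits helix-loop-helix factors, was 2.65-fold above fNSC and 4.08-fold above pNSC. The ligand Bmp7 was at least 4.28-fold above pNSC, and the co-receptor Tgfbr3 was 2.89-fold above fNSC and at least 3.51-fold above pNSC. The genes called lower were Id4, undetected in miPS-NSC and at least 1.22-fold below fNSC, and Bmp1 and Tgfb2 from pNSC. Bmp1 was 2.286-fold and Tgfb2 at least 2.265-fold below pNSC.

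Of 8 genes of Gla proteins, the vitamin K cycle and the receptors Axl and Tyro3, 1 was higher and 0 lower in each comparison. These were the receptor Axl from fNSC (2.76-fold) and its ligand, the Gla protein Gas6, from pNSC (4.99-fold). Of 8 genes around Thy1, its integrin and syndecan partners among them, 2 were higher and 0 lower than in fNSC, the syndecan Sdc4 by 4.8-fold and the integrin chain Itga5 by 3.99-fold. Itga5 was also 3.35-fold above pNSC, as the only gene of that list, with 0 lower.

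Markers of other cell types moved as well, and their part in the member values was not tested. Of 11 measured neuron markers, 5 were higher and 1 lower in miPS-NSC than in fNSC, and 4 higher and 3 lower than in pNSC. The mean log2 level of the list was 7.65 to 7.78 per array in fNSC, 8.26 to 8.28 in pNSC, 8.83 to 9.02 in miPS-NSC and 6.92 to 6.93 in MEF. Syt1, a synaptic vesicle protein, read 6.24 in fNSC, 4.84 in pNSC, 9.32 in miPS-NSC, with MEF at 5.27, and was detected on both arrays in miPS-NSC alone, while the neuronal enolase Eno2 read 6.50, 9.94, 12.84 and 11.12 in the same order. Nefm went the other way, undetected in miPS-NSC and at least 1.63-fold below fNSC and 1.71-fold below pNSC. Stmn3 was 5.76-fold below pNSC, though at least 1.23-fold above fNSC. Of 10 NSC markers, 1 was higher and 5 lower in miPS-NSC than in fNSC, and 1 higher and 3 lower than in pNSC. With no background correction, the neuron markers lower than in fNSC and pNSC were 0 and 1, and the NSC markers lower than in pNSC were 1. Fabp7, a radial glia lipid carrier, was 7.13-fold below fNSC, and Hes5, a Notch target, 6.58-fold. The NSC marker that was higher in both comparisons was Ncan, 2.79-fold above fNSC and 2.06-fold above pNSC.

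Astrocyte markers were higher in 4 of 6 from fNSC with 0 lower, and 2 higher and 1 lower from pNSC, the last count being 2 without either pNSC array. Clu was 17.8-fold above fNSC and 2.19-fold above pNSC. Apoe was at least 10.6-fold above fNSC but 3.38-fold below pNSC. Neural crest genes gave 1 higher and 1 lower of 5 from fNSC and 2 higher and 1 lower from pNSC. Among 3 measured pericyte genes, Notch3 was 2.93-fold higher than in fNSC, and Cspg4 was lower than in fNSC by at least 1.44-fold and than in pNSC by at least 1.69-fold, undetected in miPS-NSC. Of the endothelial list only Emcn was measured, at 5.10 in fNSC and 5.35 in pNSC, both undetected, and at 6.73 in miPS-NSC, with MEF at 7.06. With no background correction the count of neural crest genes higher than in pNSC was 1, and Cspg4 and Emcn gave 0 calls. For immune cells and epithelium, 0 genes of either list were measured among the named, kept probes.

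Probes that were on in fibroblasts and off in other NSCs were also counted without gene names. Of 1043 probes detected on both MEF arrays and on no fNSC or pNSC array, 81 (7.77%) were detected on both miPS-NSC arrays, as were the Thy1 and Mgp probes and ILMN_3132949 of Fbln2. The same count for pNSC, over probes off in fNSC and miPS-NSC, gave 72 of 1024 (7.03%), and for fNSC 51 of 1013 (5.03%).

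The genes nearest to each member were sought by the root mean square distance between log2 profiles centred over the 8 arrays, taking 3 per probe. For Thy1 these were Scarf2 (0.774), Igfbp7 (1.011) and Myadm (1.033), and the same 3 genes were nearest to Fbln2 on ILMN_1245307, led by Igfbp7 (0.497). Igfbp7 read 7.98 in fNSC, 6.36 in pNSC, 12.20 in miPS-NSC, with MEF at 15.45. Fbln2 on ILMN_3132949 had Nupr1 (0.341), Col4a1 (0.38) and Myadm (0.467). Col4a1, a chain of basement membrane collagen, read 8.83 in fNSC, 8.36 in pNSC, 11.85 in miPS-NSC, with MEF at 14.91.

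Twist1 had Serpinh1 (0.539), Cdkn2a (0.605) and Cap1 (0.644), all 3 lowest in pNSC. Mgp had Capn6 (0.295), Ddit3 (0.307) and Cd40 (0.328), and Cd40 read 9.81 in miPS-NSC and was undetected in fNSC and pNSC, with MEF at 10.03. For the 4 Acta2 probes, Gask1b and Anxa3 were each among the nearest of 3, Igf2 and Loxl1 of 2, and Aebp1 and Cavin2 of 1, at distances of 0.326 to 0.861, and each of these was far brighter in MEF than in any NSC group. Among the members themselves, the Thy1 profile had a Pearson's r of 0.999 with Fbln2 on ILMN_3132949 and 0.723 with Twist1. These r values describe 8 arrays in 4 groups of 2, in which MEF stands apart.

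**Figure D4:**
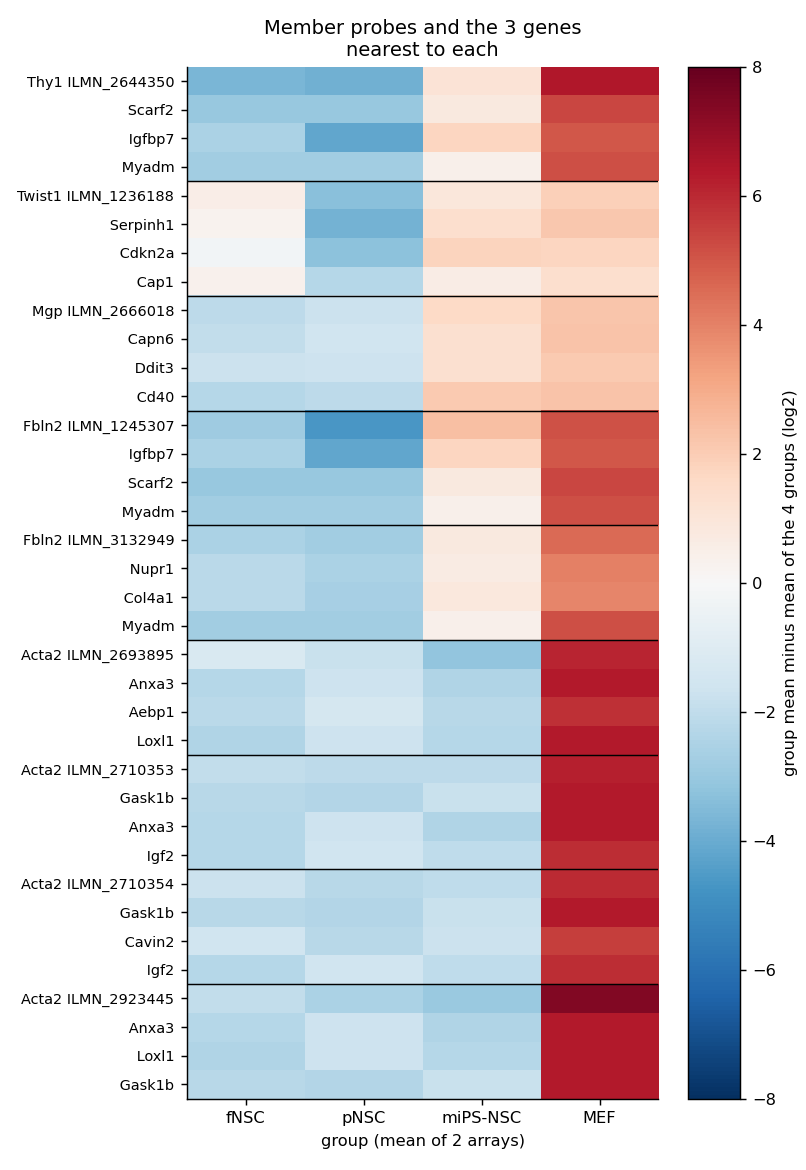
Group means (mean of 2 arrays, log2) of each member probe and of its 3 nearest genes, centred on the mean of the 4 groups; red is above and blue below that mean. Thy1 and Fbln2 share a pale to mid red in miPS-NSC with their nearest genes, Twist1 and its nearest genes are blue in pNSC, and the Acta2 blocks are red in MEF alone.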

How the data were processed

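Per the file headers, the signal table deposited for 25697 probes on 8 arrays holds bead-averaged intensity, its standard error over beads (a signal column) and the bead number, with a detection p-value deposited by the authors for each; the intensities are not background-subtracted or normalized between arrays as far as the values show. The authors' log2 values cover 12421 probes, exactly those whose detection p was below 0.05 on 4 or more arrays, and gene names were available for those probes only. GenomeStudio 2009.2 is named in the submitters' processing notes, and other steps are not given in the sources used here.

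Intensities were processed with neqc (limma 3.58.1, R 4.3.3, the data.table package, version 1.17.8; offset 16), and 12478 probes were kept, each with detection p below 0.01 on every array of some group, 10958 of them named through the platform annotation. One limma model (lmFit, eBayes) over all 8 arrays, with 4 residual degrees of freedom, gave 6 comparisons; p-values are two-sided and Benjamini-Hochberg adjusted over all kept probes, and a call needs adjusted p under 0.05 and a change of at least 2-fold. Where the dim group was not detected on both arrays, the fold is "at least", with each dim value first raised to the dimmest detected probe of its array where it lay lower. A percent of MEF is 2 to the power of the log2 difference. Members and gene lists were chosen with earlier results of these data known; list genes named are those of largest change among the called, up to 4 per list and comparison, of which those most tied to the members are given. Likeness names the 3 genes nearest each probe. Same-numbered arrays of different groups did not deviate together (Pearson's r -0.006 to 0.078 over 6 pairs of groups). Figures used matplotlib. The number of arrays limits the precision.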

Additional observations from a re-analysis of the deposited data

How the results depend on the processing

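Other settings moved the number of probes called, and no member difference from MEF changed direction. In the order miPS-NSC minus fNSC, miPS-NSC minus pNSC, pNSC minus fNSC, MEF minus fNSC, MEF minus pNSC and MEF minus miPS-NSC, 1661, 1771, 1307, 5752, 5766 and 5655 probes were called. Quantile normalization with no background correction gave 714, 747, 552, 3275, 3270 and 3143, the authors' processed values 720, 758, 551, 2862, 2899 and 2746, and an adjusted p with no limit on the fold 5631, 5748, 4848, 9857, 9845 and 9751. Leaving out 1 array at a time gave 1649 to 1742, 1764 to 1828, 1299 to 1371, 5677 to 5776, 5710 to 5796 and 5585 to 5668, where the lone array of a group is assumed to vary like the others. With the title ending as a replicate block, 1659, 1772, 1311, 5753, 5766 and 5658 probes were called; the arrays share only a number. Over 27 member differences from MEF, 403 values under 15 alternatives kept their direction and side of the threshold. The other 2, both of Twist1 (given above), kept their direction and crossed the threshold. Among the NSC groups, 46 values moved by at least the larger replicate SD of the groups compared, and 359 did not. The 46 came under the background alternatives and the authors' values, and the cause was not tested. The 359 do not measure stability, since most settings could not move a value by this rule. Nor do the 403, since most differences from MEF lie far above the 2-fold limit. The filters, the replicate block and a fit of only the arrays compared leave the log2 differences unchanged. Leaving out 1 of 2 arrays shifts their mean by less than their SD. Depth limits what can be said of probes under 6.135 to 6.29, whose order is not resolved.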
